A study of Mus musculus with 2 samples.

Results

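Mature monocytes that carry Wfdc17 and Clec4a transcripts were examined in bone marrow of Col1a1fspKO mice and WT littermates. The cells were chosen by their UMI counts (unique molecular identifiers, each marking 1 captured mRNA molecule). A member had at least 4 UMIs in sum of the monocyte genes Csf1r, Ms4a6c, F13a1 and Ccr2, and at least 3 UMIs in sum of Clec4a1, Clec4a3 and Wfdc17. It also had under 3 UMIs of Siglech (plasmacytoid dendritic cells), under 3 UMIs of Cd79a (B cells) and under 100 UMIs of Retnlg (neutrophils) per 10000 UMIs of the cell. In all, 357 of 2478 cells met the rule, 188 of 1309 in Col1a1fspKO and 169 of 1169 in WT. Monocyte-gated cells that met every other criterion but had fewer than 3 UMIs of the Clec4a1, Clec4a3 and Wfdc17 sum numbered 95 in Col1a1fspKO and 132 in WT, and they serve below as the neighbouring population.

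The Col1a1fspKO mice carried Fsp1-Cre, in which the promoter of S100a4 (Fsp1) drives Cre recombinase, and a Col1a1 allele with loxP sites on both copies. The WT mice were Cre-negative littermates that carried the same loxP-flanked Col1a1 allele, so they were not wild type at that locus. All mice were 2 months old, and live marrow cells flushed from femur and tibia were pooled from 2 mice into 1 library per genotype. The mice of a pool cannot be told apart, so the genotypes were compared without replicates or a test, and every 95% interval below covers counting error only. Monocytes themselves express S100a4, at 1202 counts per 1000000 UMIs (CPM) in Col1a1fspKO members and 1322 CPM in WT members. Col1a1, the targeted gene, had 1 UMI in the Col1a1fspKO members and 0 in the WT members, which is too few to check the deletion in these cells, and 3' tags lie outside the deleted exons.

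Monocytes arise in the marrow from dividing myeloid progenitors and leave it as circulating phagocytes. Classical mouse monocytes carry Ly6C and the chemokine receptor Ccr2, while non-classical monocytes lose Ly6C and gain Cx3cr1 and the transcription factor Nr4a1. Csf1r, the receptor for macrophage colony-stimulating factor, is needed for the lineage. The Clec4a genes encode C-type lectin receptors of myeloid cells, and Wfdc17 encodes a small secreted protein with a whey acidic protein domain.

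In sum the members had 1219646 UMIs for Col1a1fspKO against 1016945 for WT, with a median of 5816.5 and 5336 UMIs per cell. The shallowest member had 2827 UMIs in Col1a1fspKO and 3106 in WT, and the deepest had 23808 and 20291. The neighbouring population was deeper, with a median of 8874 and 8760 UMIs. Of the cell barcodes, 2 occurred in both libraries, and neither was a member in either. Scrublet called 2 Col1a1fspKO members and 1 WT member doublets, out of 5 and 5 cells in the whole libraries, a share too low to show that the caller worked.

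The values that chose the cells are given as a description. The sum of Clec4a1, Clec4a3 and Wfdc17 ran from 3 to 28 UMIs in Col1a1fspKO members, with a median of 7, and from 3 to 18 UMIs in WT members, with a median of 6. At exactly 3 UMIs, just inside the rule, stood 19 Col1a1fspKO and 30 WT members. Just outside it, at 2 UMIs, stood 25 Col1a1fspKO and 32 WT cells. The cells just inside the rule had Ctss at 403 CPM in Col1a1fspKO members and 463 in WT members, and those just outside had 167 and 429 CPM. Few cells were close to the monocyte minimum, with 1 member per library at a monocyte sum of 4 UMIs and 2 cells per library left out at 3. The Cd79a and Retnlg limits kept out 5 Col1a1fspKO and 2 WT cells that met the other criteria, and the Siglech limit kept out 0. The plot of both sums shows no gap at the limit, so the members are a range of cells above a limit.

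**Figure D1:**
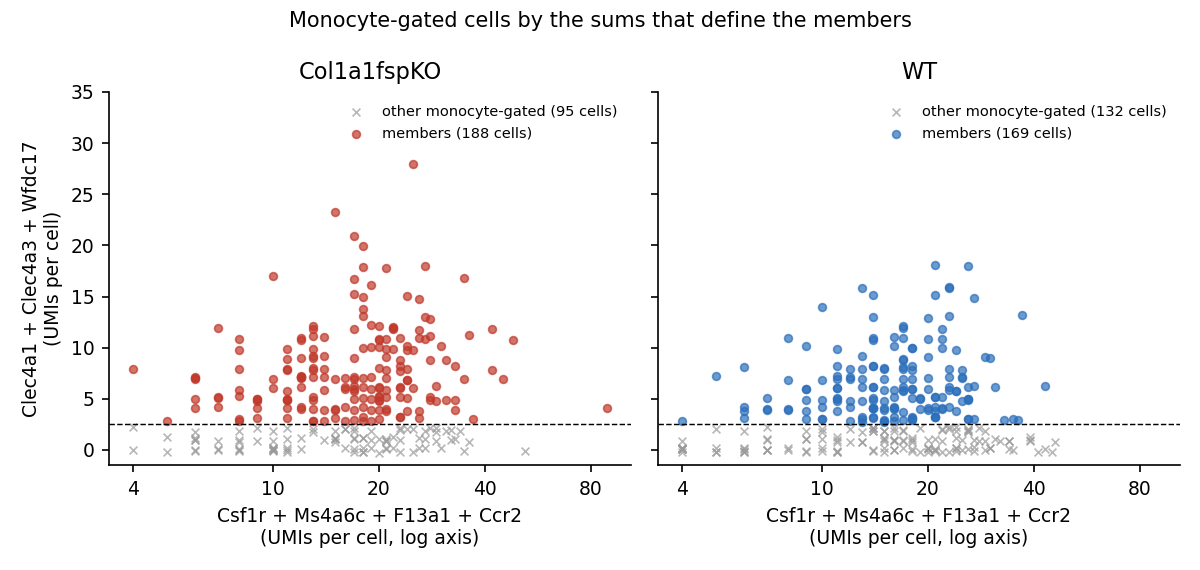
Each point is 1 monocyte-gated cell, with the summed UMIs of Csf1r, Ms4a6c, F13a1 and Ccr2 on the horizontal log axis and the summed UMIs of Clec4a1, Clec4a3 and Wfdc17 on the vertical axis (shifted slightly at random so that points do not hide each other). Members (188 in Col1a1fspKO, 169 in WT) lie above the dashed line and the neighbouring cells (95 and 132, crosses) below it, with cells filling the range down to the line in both libraries.

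The label was checked with Ctss and Adgre1, which took no part in the rule. Ctss encodes the lysosomal protease cathepsin S. It was at 708 CPM (661 to 756) in the Col1a1fspKO members, against 769 (716 to 825) in the WT members. In the neighbouring cells it was at 147 CPM (124 to 173) and 206 CPM (183 to 232). Adgre1, which encodes the macrophage surface protein F4/80, was at 83.6 CPM (68.2 to 102) in the Col1a1fspKO members, against 83.6 (66.8 to 103) in the WT members. An Adgre1 UMI was found in 74 of 188 members (39.4%, 32.3 to 46.7) in Col1a1fspKO and in 65 of 169 (38.5%, 31.1 to 46.2) in WT. In Cd79a cells, which should lack Adgre1, 0 of 240 cells had a UMI in Col1a1fspKO (a count of 0 here allows up to 1.25%), against 0.459% of cells in WT. Those cells had a median of 4594 and 5722 UMIs. Ctss was at 55.4 and 60.4 CPM in the Cd79a cells. Both genes were above the level in these B-lineage cells in each library, and at this depth Adgre1 was not seen in most members. In the members with at least 10 UMIs of the G2/M (cell division) genes, described below, Ctss was at 281 CPM in Col1a1fspKO and 230 in WT. These levels were nearer to those of the neighbouring cells than to the other members, at 912 and 919 CPM. The label mature thus describes these cells less well.

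Csf1r was at 157 CPM (135 to 180) in the Col1a1fspKO members, against 191 (165 to 220) in the WT members. Clec4a3 was at 163 CPM (141 to 187) and 191 CPM (165 to 220). Wfdc17 was the most abundant of the 3 genes of the second sum, at 840 CPM (790 to 893) in the Col1a1fspKO members, against 695 (645 to 748) in the WT members, and 183 of 188 and 164 of 169 members had a UMI of it. Retnlg UMIs were still found in 142 Col1a1fspKO and 107 WT members, at 294 and 301 CPM.

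The members expressed the classical program. Lyz2 (lysozyme) was at 24293 CPM in Col1a1fspKO members and 30609 CPM in WT members, ahead of Tmsb4x (thymosin beta 4, which binds actin) at 23546 and 25224 CPM. Ly6c2, which encodes Ly6C, was at 3121 CPM in Col1a1fspKO members and 1921 in WT members. Plac8 stood at 4778 and 3865 CPM, Ifitm3 (an antiviral membrane protein) at 4062 and 4229 CPM, and Tyrobp (the DAP12 signalling adaptor) at 4737 and 5084 CPM. Since 1 UMI is counted per 3' end, these levels were not divided by gene length. Among the 15 most abundant genes without ribosomal and mitochondrial ones were also S100a8 and S100a9, which neutrophils express at far higher levels, and the globin gene Hbb-bs.

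Non-classical markers differed in how many members carried them. Cx3cr1, the fractalkine receptor, was at 132 CPM (112 to 154) in the Col1a1fspKO members, against 153 (130 to 179) in the WT members. Ace and Treml4, markers of non-classical monocytes, were picked out after their values had been seen. They had a UMI in 10 and 7 of 188 Col1a1fspKO members and in 7 and 8 of 169 WT members. Gngt2, Cd300a and Pou2f2 of the non-classical list were in 113, 106 and 100 Col1a1fspKO members and 76, 97 and 103 WT members. Of 10 tested list genes, 1 had a ratio interval above 1 and 2 below 1, beside 6.72% and 5.68% of all genes. Ratios of Col1a1fspKO over WT were 1.496 (1.251 to 1.792) for Gngt2, 0.702 (0.564 to 0.874) for Pou2f2 and 0.804 (0.746 to 0.867) for Cebpb. At least 3 UMIs of the non-classical list were found in 186 of 188 Col1a1fspKO and 169 of 169 WT members. Most of these UMIs were of Cebpb, a transcription factor that many myeloid cells use, at 1110 and 1381 CPM. Without Cebpb, the share was 148 of 188 and 129 of 169 members, a difference of 2.39 points (-6.23 to 11.1).

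Of 18 macrophage genes, 14 had a UMI in Col1a1fspKO members and 16 in WT members, with a summed level of 702 and 918 CPM, compared with 170 and 209 CPM in the neighbouring cells. Per cell the list ran from 0 to 32 UMIs in Col1a1fspKO and from 0 to 39 UMIs in WT, and 94 of 188 and 97 of 169 members had at least 3 UMIs. Most of these UMIs were of Apoe, Cd68 and Adgre1, of which Cd68, an endosomal glycoprotein, was at 206 and 220 CPM. The tissue macrophage genes Timd4 and Marco were at 0 UMIs in both libraries, and Cd163 and Mertk at 0 in Col1a1fspKO. Of 13 conventional dendritic cell genes, 9 and 10 had a UMI, with up to 20 UMIs in a Col1a1fspKO member and 52 in a WT member, and 33 of 188 and 24 of 169 members had at least 3 UMIs. Xcr1 and Clec9a, which mark only a subset of conventional dendritic cells, were at 0 in both libraries, which says nothing of the other subsets. Cd209a of this list had a UMI in 3 Col1a1fspKO and 8 WT members. Of 10 plasmacytoid dendritic cell genes, 8 and 6 had a UMI, and 123 of 188 and 120 of 169 members had at least 3 UMIs. Their summed level was 617 CPM in Col1a1fspKO and 679 CPM in WT members, against 574 and 546 CPM in the neighbouring cells. The rule limits Siglech of this list, and Ccr9 and Klk1 were at 0 in both libraries. Of 10 B cell genes, 8 and 6 had a UMI, with at most 3 and 5 UMIs in a member, and Igkc and Ighm were at 0 in both. Of 11 T and natural killer cell genes, 7 and 4 had a UMI, with a summed level of 116 and 25.6 CPM and at most 84 and 6 UMIs in a member, and Cd3g, Trbc2, Trac and Ncr1 were at 0 in both.

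Erythroid and neutrophil transcripts were found in every member. The summed erythroid genes ran from 27 to 285 UMIs per Col1a1fspKO member, with a median of 63, and from 21 to 5395 UMIs per WT member, with a median of 48. The summed neutrophil genes ran from 9 to 5896 UMIs and from 4 to 4473 UMIs. The WT cell with 5395 erythroid UMIs had 13880 UMIs in all and was called a doublet. It moves the globin genes, since Hba-a1 was at a ratio of Col1a1fspKO over WT of 0.56 over all members and 1.26 without the cell with the most Hba-a1 UMIs in each library.

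The share of members was compared between the libraries. Their share of all cells was 14.4% (12.5 to 16.4) in Col1a1fspKO against 14.5% (12.5 to 16.6) in WT, which differ by -0.0947 percentage points (-2.88 to 2.67). The neighbouring population had a share of 7.26% (5.91 to 8.80) against 11.3% (9.53 to 13.2), which differ by -4.03 points (-6.36 to -1.75). Of the monocyte-gated cells alone, members were 66.4% (60.6 to 71.9) in Col1a1fspKO against 56.1% (50.3 to 61.8) in WT, which differ by 10.3 points (2.38 to 18.0). When every cell was thinned to 2500 UMIs before the rule was applied, which left out no cell, members were 41.0% and 37.1% of the monocyte-gated cells, a difference of 3.84 points (-5.01 to 12.6). Among all cells the thinned shares were 7.10% and 7.53%. The direction over monocyte-gated cells was kept under thinning, but the interval then included 0.

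The members differed from the neighbouring monocyte-gated cells in progenitor, cell cycle and interferon-stimulated genes, among others, in both libraries. The rule separates these cells, so the values are a description with no test. Of 4235 genes with at least 100 UMIs over both sets, 185 (4.37%) were at least 2-fold higher in the members of both libraries and 284 (6.71%) at least 2-fold lower. Besides the genes of the rule, Gm5150, Hpgd, Sirpb1b and Sirpb1c were among the highest in members. Gm5150 was higher in members by a factor of 19.4 in Col1a1fspKO and 12.4 in WT. The Sirpb1 genes encode signal regulatory proteins. Sirpb1c was at 180 CPM in Col1a1fspKO members and 214 CPM in WT members, and at 7.95 and 23.5 CPM in the neighbouring cells. Sirpb1b was higher in members by a factor of 13.2 in Col1a1fspKO and 11.3 in WT. Hpgd, which encodes a prostaglandin-degrading dehydrogenase, was higher by 11.9 and 12.2. Apoe (apolipoprotein E) was higher by 5.69 and 9.73.

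Interferon-stimulated genes were also in this group. Isg15, an interferon-induced ubiquitin-like protein, was higher in members by a factor of 4.17 in Col1a1fspKO and 11.7 in WT, Rtp4 by 7.36 and 7.22, and Slfn1 by 5.86 and 6.34. Of 12 interferon-stimulated genes with enough UMIs, 7 were at least 2-fold higher in members of both libraries and 0 lower, beside 4.37% and 6.71% of all genes. Further lists with many genes on this side were the classical monocyte genes, with 7 of 12 higher, neutrophil genes, with 6 of 10, and MHC class II presentation genes, with 4 of 6. So were the macrophage genes, with 3 of 4, IFITM genes, with 3 of 4, MS4A family genes, with 4 of 7, and scavenger receptor and lipid genes, with 4 of 8. The IFITM, MS4A and scavenger lists each also had 1 gene at least 2-fold lower.

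At the low end stood genes of granulocyte and monocyte progenitors. Elane (neutrophil elastase) was in members at 0.0599 of its level in the neighbouring cells in Col1a1fspKO and 0.058 in WT. Ctsg (cathepsin G) was at 0.0692 and 0.0169, and Mpo (myeloperoxidase) at 0.0859 and 0.0139. Ccnd2 (cyclin D2) was at 0.0344 and 0.0252 and Phgdh, of serine synthesis, at 0.0629 and 0.0183. All 6 myeloid progenitor genes and all 15 S phase genes that could be compared were at least 2-fold lower in the members of both libraries. Of 17 G2/M genes, 9 were lower and 0 higher, and over all genes 6.71% were lower and 4.37% higher.

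Among the members themselves, Ctss, Sirpb1c and the G2/M genes followed the Clec4a1, Clec4a3 and Wfdc17 sum. In Col1a1fspKO, Ctss was at 428 CPM in the 40 members with 3 to 4 UMIs of the sum, 700 CPM in the 68 with 5 to 7, and 880 CPM in the 80 with 8 or more. In WT, it was at 575, 688 and 1143 CPM in 59, 60 and 50 members. Sirpb1c went from 72.0 through 184 to 242 CPM in Col1a1fspKO and from 153 through 199.5 to 318 CPM in WT. The summed G2/M genes went the other way, from 4626 through 2842 to 1732 CPM in Col1a1fspKO and from 3473 through 1604 to 511 CPM in WT. The median depth of the 3 ranges lay between 5582 and 5946 UMIs in Col1a1fspKO and between 5239 and 5449 UMIs in WT. Adgre1 was lowest at 3 to 4 UMIs in both libraries, at 44.5 and 64.5 CPM, but did not increase from the middle to the top range in WT.

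**Figure D2:**
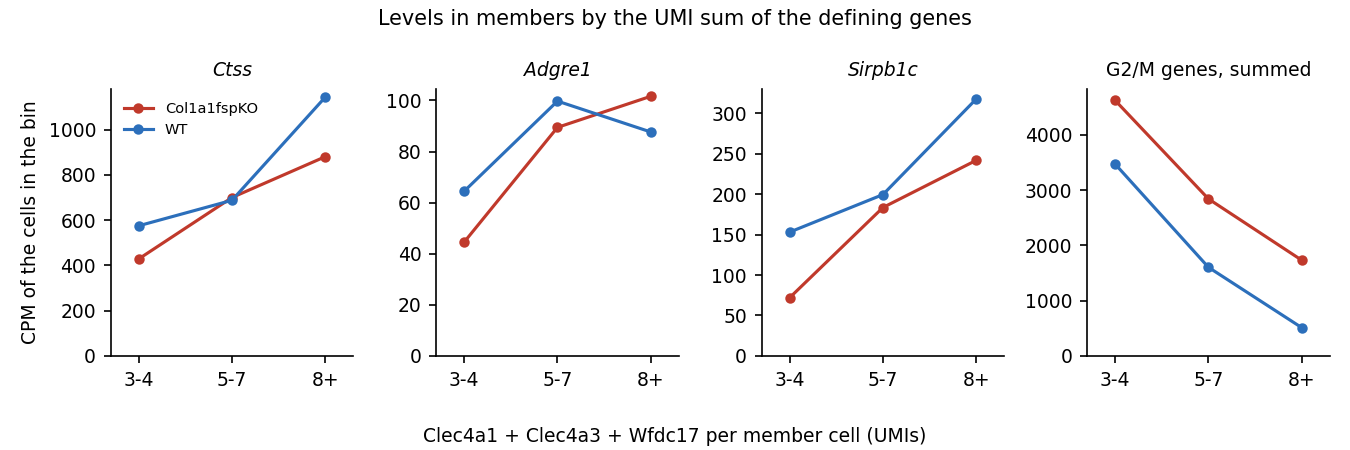
Levels in CPM of Ctss, Adgre1, Sirpb1c and the summed G2/M genes (vertical axes, from 0) in members grouped by their summed UMIs of Clec4a1, Clec4a3 and Wfdc17 (horizontal axis), in Col1a1fspKO (red) and WT (blue). Ctss and Sirpb1c were higher and the G2/M genes lower in each further range in both libraries, with the Col1a1fspKO line above the WT line for the G2/M genes throughout.

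Members with many G2/M transcripts were then set apart. At least 10 UMIs of the G2/M list were found in 37 of 188 Col1a1fspKO members, or 19.7% (14.3 to 26.1), and in 21 of 169 WT members, or 12.4% (7.86 to 18.4). These cells had a median of 10194 and 10062 UMIs, compared with 5473 and 5202 in the other members, and thinned to 2500 UMIs the shares were 13.8% and 9.47%. They held 83.6% of the G2/M UMIs in Col1a1fspKO and 77.5% in WT. Ctss was at 281 CPM in them and 912 CPM in the other members of Col1a1fspKO, and at 230 and 919 CPM in WT. Apoe was at 27.8 against 455 CPM in Col1a1fspKO and at 135 against 632 CPM in WT. Adgre1 was at 22.8 against 113 CPM in Col1a1fspKO and at 40.6 against 95.6 CPM in WT. Since the rule asks for the same number of UMIs at any depth, these deeper cells could pass it at a lower level of its genes.

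Between the genotypes, the G2/M genes were the list with the most counting intervals above 1. At least 3 UMIs of the list were found in 136 of 188 Col1a1fspKO members, or 72.3% (65.4 to 78.6), and in 99 of 169 WT members, or 58.6% (50.8 to 66.1), a difference of 13.8 points (3.89 to 23.3). Thinned to 2500 UMIs, the shares were 39.4% and 24.9%, a difference of 14.5 points (4.80 to 23.8). At 10 UMIs or more, the difference was 7.25 points (-0.454 to 14.8). Most UMIs of the list were of Hmgb2, at 1509 of 2821 CPM in Col1a1fspKO and 1104 of 1994 CPM in WT. A UMI of Hmgb2 was found in 178 and 150 members, and of Cks2, the next most abundant, in 58 and 38. The shares are thus not counts of cells in G2/M, and they were not computed without Hmgb2. Myeloid progenitor transcripts, at least 3 UMIs in a cell, were also in more Col1a1fspKO members, with 27 of 188 against 11 of 169, a difference of 7.85 points (1.43 to 14.2) that was 1.77 points (-2.88 to 6.38) when thinned, and their part in the G2/M difference was not tested. Of the 14 list genes with at least 50 UMIs, 8 had a counting interval of the ratio above 1 and 0 below 1. Over all 4017 genes with that minimum, 270 (6.72%) had an interval above 1 and 228 (5.68%) below 1. The median log2 ratio of the list was 0.55, and that of all genes was 0.02.

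The named G2/M genes were Hmgb2, a chromatin protein, at 1509 CPM in Col1a1fspKO members and 1104 in WT members, a ratio of 1.37 (1.27 to 1.47), and Cks2, a partner of cyclin-dependent kinases, at 190 and 128 CPM, a ratio of 1.49 (1.20 to 1.86). Ube2c, a ubiquitin-conjugating enzyme of mitosis, had a ratio of 1.45 (1.16 to 1.83), and Birc5 (survivin) one of 1.43 (1.13 to 1.81). Of the 14 genes, Ccnb1 (cyclin B1) had the highest ratio, 2.28 (1.33 to 4.09), from 52 UMIs in 17 cells of Col1a1fspKO and 19 UMIs in 6 cells of WT. The top cell held 16 of these UMIs in Col1a1fspKO and 12 in WT, and without both cells the ratio was 4.29. The proliferation marker Mki67, given here after its value had been seen, was at a ratio of 1.14 (0.786 to 1.68). Of the S phase list, 0 of 5 genes had an interval away from 1, and the median log2 ratio was 0.11.

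**Figure D3:**
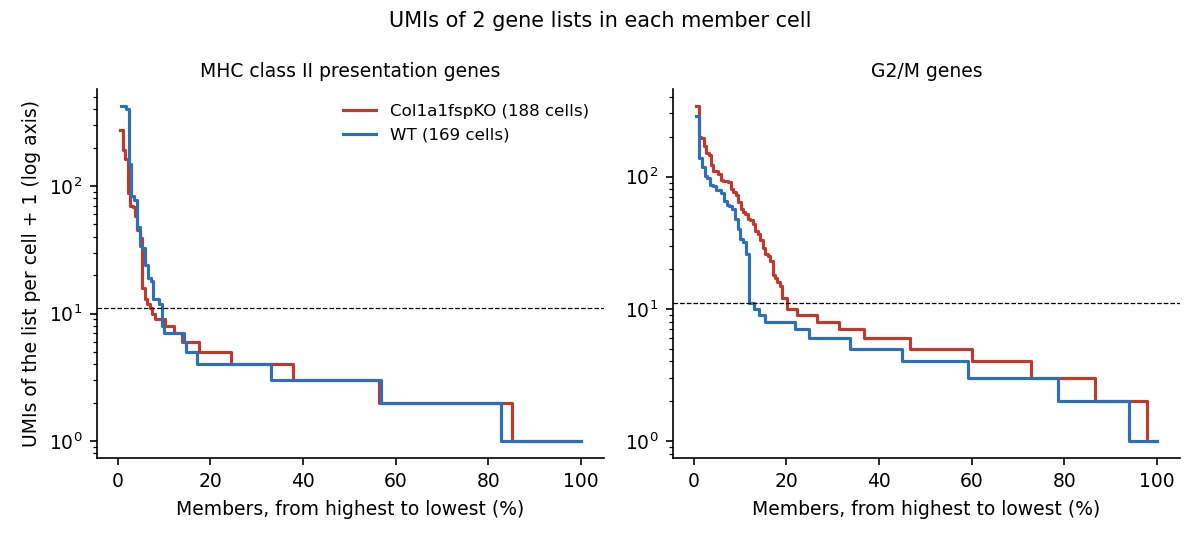
Members of each library ranked from the highest to the lowest number of UMIs of the MHC class II presentation genes (left) and the G2/M genes (right), with the percent of members on the horizontal axis and the UMIs per cell plus 1 on a vertical log axis. The dashed line marks 10 UMIs, which 13 of 188 Col1a1fspKO (red) and 15 of 169 WT (blue) members reached for class II and 37 and 21 reached for G2/M.

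Over all genes, the members of the libraries were close to each other, and a few genes stood far apart. Of 4017 genes with at least 50 UMIs over the members, 26 (0.647%) were at least 2-fold higher in Col1a1fspKO and 21 (0.523%) at least 2-fold lower. The middle 50% of the log2 ratios lay between -0.18 and 0.20. The genes that stood apart were of 2 kinds, which the plot of UMIs in the top cell separates. For 21 of the 26 higher and 17 of the 21 lower genes, no cell of the higher library held 20% of the UMIs. For the other 5 and 4 genes, 1 cell did.

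**Figure D4:**
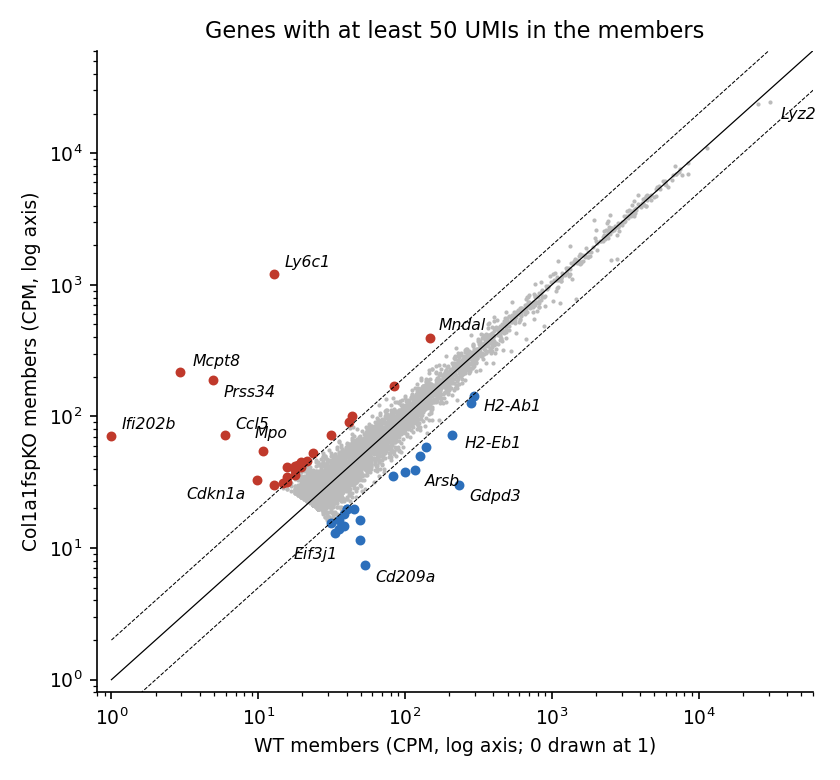
CPM of each of 4017 genes in WT members (horizontal log axis) and Col1a1fspKO members (vertical log axis), with a solid line at equality and dashed lines at 2-fold. The 26 genes at or above 2-fold are red and the 21 at or below it are blue, and Ifi202b, with 0 UMIs in WT, is drawn at 1 CPM on the horizontal axis.

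Ly6c1 was the gene farthest apart. It encodes a surface protein of the Ly6 family and is a close relative of Ly6c2 on the same chromosome. It had 1483 UMIs in Col1a1fspKO members, at 1216 CPM (1155 to 1279), and 13 UMIs in WT members, at 12.8 CPM (6.81 to 21.9), a ratio of 95.1 (55.5 to 179). A Ly6c1 UMI was found in 179 of 188 Col1a1fspKO members and in 13 of 169 WT members, and each of those 13 had 1 UMI. The difference was thus carried by nearly all cells, with the highest Col1a1fspKO cell holding 2.09% of the UMIs. Ly6c2 was at 3121 CPM in Col1a1fspKO members and 1921 in WT members, a ratio of 1.62 (1.54 to 1.72), so it was not lower where Ly6c1 was higher. Reads of the pair may have been split between them in the authors' counting. With 1 pool per genotype, a genotype difference cannot be told apart from one that the pooled mice inherited at other loci. This applies to every ratio between the libraries, among them those of Ly6c1 and Ly6c2, and of the PYHIN genes, Gdpd3, Eif3j1, Vcan and AW112010 below. The ratio of Ly6c1 was 76.5 in the neighbouring monocyte-gated cells and 67.2 over all the remaining cells. Ly6g, a neutrophil gene of the same family, had 50 UMIs in 20 cells of Col1a1fspKO and 16 UMIs in 10 cells of WT, a ratio of 2.61 (1.46 to 4.90). Ly6e had a ratio of 0.926 (0.864 to 0.991).

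The promoter windows of Ly6c1 and Ly6c2 are shown to compare this pair of genes, whose ratios differ. They are RefSeq windows of build GRCm38.p6, from 250 bases before to 50 bases after the start of transcription, both on the minus strand of chromosome 15, and each gene has 2 windows in the table, of which the first is printed. Over a global alignment of 340 columns, 214 bases were identical, or 62.9%. The capitals mark the longest stretch found in both, of 20 bases.
Ly6c1, chr15:75048788-75049087: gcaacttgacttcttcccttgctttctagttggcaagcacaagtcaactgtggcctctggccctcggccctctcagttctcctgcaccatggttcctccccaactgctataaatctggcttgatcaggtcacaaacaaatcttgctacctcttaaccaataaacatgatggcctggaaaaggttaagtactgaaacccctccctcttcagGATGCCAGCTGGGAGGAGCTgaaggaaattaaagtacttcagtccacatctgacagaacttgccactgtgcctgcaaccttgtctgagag
Ly6c2, chr15:75111922-75112221: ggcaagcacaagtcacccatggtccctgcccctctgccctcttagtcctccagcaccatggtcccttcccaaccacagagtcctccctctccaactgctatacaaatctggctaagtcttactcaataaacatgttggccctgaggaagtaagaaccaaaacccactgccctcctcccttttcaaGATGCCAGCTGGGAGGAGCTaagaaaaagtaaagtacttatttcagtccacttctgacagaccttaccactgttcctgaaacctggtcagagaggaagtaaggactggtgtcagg

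PYHIN genes were apart in both directions. These genes encode interferon-inducible proteins with a pyrin domain, a DNA-binding HIN domain or both. They lie in a cluster of close relatives, so reads may be shared among them, and inherited differences between the pools cannot be told apart from genotype. Mndal had 481 UMIs in 167 Col1a1fspKO members, at 394 CPM, and 150 UMIs in 90 WT members, at 148 CPM, a ratio of 2.67 (2.22 to 3.23). Ifi202b had 87 UMIs in 64 Col1a1fspKO members and is not listed for WT. With the floor of 3 UMIs over the WT members, Ifi202b had a ratio of 24.2. Its counting interval, which was taken without the floor, began at 19.3. Pyhin1 went the other way, with 61 UMIs in 38 Col1a1fspKO members and 129 UMIs in 76 WT members, a ratio of 0.394 (0.286 to 0.539). Mnda was at 93.5 CPM in Col1a1fspKO members and 169 in WT members, a ratio of 0.553 (0.432 to 0.704). Pydc4, picked out after its values had been seen, had 0 UMIs in Col1a1fspKO and 23 UMIs in 20 WT members. With the floor of 3 UMIs in Col1a1fspKO, its ratio was 0.109, and its counting interval, taken without the floor, reached up to 0.145. Ifi203 was at a ratio of 1.33 (1.11 to 1.61) and Ifi204 at 0.919 (0.730 to 1.16).

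The PYHIN differences had the same direction outside the members in part. Mndal was at 308 CPM in the neighbouring cells of Col1a1fspKO and 79.7 CPM in those of WT, and at 181 and 109 CPM in Cd79a cells. Ifi202b was at 42.7 CPM in the neighbouring cells of Col1a1fspKO and had 1 UMI in each of the Retnlg-high and Cd79a sets. Pyhin1 had a ratio of 0.561 in the neighbouring cells and 0.998 over the remaining cells. Of 8 tested PYHIN genes, 3 had an interval above 1 and 2 below 1, beside 6.72% and 5.68% of all genes. Their median log2 ratio was -0.13.

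Of 19 interferon-stimulated genes with at least 50 UMIs, 3 had an interval above 1 and 1 below 1, beside 6.72% and 5.68% of all genes, and 0 were 2-fold apart, with a median log2 ratio of 0.35. At least 3 UMIs of this list were found in 165 of 188 Col1a1fspKO and 127 of 169 WT members, a difference of 12.6 points (4.58 to 20.7), and thinned to 2500 UMIs the difference was 10.6 points (0.228 to 20.6). Isg15 was at 82.8 CPM in Col1a1fspKO members and 44.3 in WT members, a ratio of 1.87 (1.30 to 2.72). Bst2 (tetherin) went the other way, at 148 and 195 CPM, a ratio of 0.762 (0.620 to 0.937). Irf7 was at a ratio of 0.913 (0.712 to 1.17).

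Among genes with at least 50 UMIs, Gdpd3 was the lowest in Col1a1fspKO relative to WT. It encodes a glycerophosphodiester phosphodiesterase of lysophospholipid metabolism. It had 37 UMIs in 33 Col1a1fspKO members, at 30.3 CPM (21.4 to 41.8), and 237 UMIs in 99 WT members, at 233 CPM (204 to 265), a ratio of 0.13 (0.0895 to 0.185). It was not limited to the members, since it was at 20.9 CPM in the neighbouring cells of Col1a1fspKO and 92.6 CPM in those of WT, at 68.5 and 340 CPM in Retnlg-high cells, and at 10.7 and 49.2 CPM in Cd79a cells. Eif3j1, a subunit of translation initiation factor 3, had a like pattern, at 11.5 CPM in Col1a1fspKO members and 49.2 CPM in WT members, with a ratio of 0.233 in members, 0.265 in the neighbouring cells and 0.285 over the remaining cells. Eif3j2, a near copy, could share reads with it. For Gdpd3 and Eif3j1 too, genotype and inherited differences between the pools cannot be told apart. Hpgd had 72 UMIs in 43 Col1a1fspKO members and 141 UMIs in 58 WT members, a ratio of 0.426 (0.316 to 0.569), and was at 0.436 in the neighbouring cells.

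Other low genes were closer to equal in the neighbouring cells. Arsb, the lysosomal enzyme arylsulfatase B, had 48 UMIs in 40 Col1a1fspKO members and 118 UMIs in 82 WT members, a ratio of 0.339 (0.237 to 0.478), and was at 0.69 in the neighbouring cells and 0.907 over the remaining cells. Hgsnat, which acts on heparan sulfate in the lysosome, had 20 UMIs in 20 cells and 50 UMIs in 43 cells, a ratio of 0.334 (0.188 to 0.570). It was at 0.854 in the neighbouring cells and 1.01 over the remaining cells. Lpl, lipoprotein lipase, had 46 and 101 UMIs, a ratio of 0.38 (0.262 to 0.543), compared with 0.943 in the neighbouring cells. Over the remaining cells Lpl went the other way, at 2.45 (1.28 to 4.93) from 35 and 14 UMIs. Lfng, Nav1 and Gpr35 had between 16 and 18 UMIs in Col1a1fspKO and between 34 and 39 UMIs in WT. Whether these ratios differ between the members and the other cells was not tested.

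Lpl is 1 of 8 tested scavenger receptor and lipid genes, of which 3 had an interval below 1 and 0 above 1, beside 5.68% and 6.72% of all genes, with a median log2 ratio of -0.41. Apoe was at 316 CPM in Col1a1fspKO members and 524 in WT members, a ratio of 0.604 (0.528 to 0.690), and Plin2, of lipid droplets, at 94.3 and 151 CPM, a ratio of 0.623 (0.485 to 0.798). At least 3 UMIs of the list were found in 116 of 188 Col1a1fspKO and 126 of 169 WT members, a difference of -12.9 points (-22.1 to -3.16). Of 20 cathepsin and lysosomal genes, 5 had an interval below 1 and 1 above 1, with a median log2 ratio of -0.12, and Npc2 and Psap were at 0.978 and 0.922.

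Classical monocyte genes split. Of 12 tested, 3 had an interval above 1 and 6 below 1, beside 6.72% and 5.68% of all genes. Their median log2 ratio was -0.20. Ly6c2 and Plac8 were higher in Col1a1fspKO, with ratios of 1.62 (1.54 to 1.72) and 1.24 (1.19 to 1.29). Lyz2 was lower, with a ratio of 0.794 (0.781 to 0.806), and so was S100a4, at 0.909 (0.844 to 0.980). The lowest of the 12 was Chil3, a chitinase-like protein that was picked out after its values had been seen, at 779 CPM in Col1a1fspKO members and 1451 in WT members, a ratio of 0.537 (0.494 to 0.583). Vcan (versican), also picked out afterwards and below the 50 UMI minimum, had 40 UMIs in 29 Col1a1fspKO members and is not listed for WT. With the floor, Vcan had a ratio of 11.1, and its counting interval, taken without the floor, began at 8.63. In the neighbouring cells of Col1a1fspKO it had 2 UMIs. Here too, genotype and inherited differences between the pools cannot be told apart.

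MHC class II presentation genes were lower in Col1a1fspKO over the sum of the members, and most of their UMIs were in few cells. H2-Aa was at 142 CPM in Col1a1fspKO members and 296 in WT members, a ratio of 0.479 (0.395 to 0.580), H2-Ab1 at 127 and 281 CPM, a ratio of 0.452 (0.369 to 0.551), and H2-Eb1 at 72.2 and 210 CPM, a ratio of 0.343 (0.264 to 0.441). These are the alpha and beta chains of the class II molecules, and Cd74, the invariant chain, was at 483 and 881 CPM, a ratio of 0.548 (0.493 to 0.609). Of 6 list genes, 3 were at least 2-fold lower and 5 had an interval below 1, beside 0.523% and 5.68% of all genes. H2-DMa, which helps to load peptide, was at 248 and 222 CPM, a ratio of 1.12 (0.938 to 1.33).

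H2-Eb1 UMIs were found in 11 Col1a1fspKO and 12 WT members, and 1 WT cell held 31.8% of those in WT. At least 10 UMIs of the list were found in 13 of 188 Col1a1fspKO members, or 6.91% (3.73 to 11.5), and in 15 of 169 WT members, or 8.88% (5.05 to 14.2), a difference of -1.96 points (-7.93 to 3.74). These cells held 73.6% of the list's UMIs in Col1a1fspKO and 86.5% in WT. In the other 175 and 154 members, Cd74 was at 56.2 and 41.6 CPM, a ratio of 1.35 (0.890 to 2.08), and H2-Eb1 had 3 and 2 UMIs. The list was at 10510 CPM in the 13 cells and 17193 CPM in the 15 cells, and at 333 and 301 CPM in the other members. In WT, 3 cells with 405 to 426 UMIs held 1255 of the 1767 class II UMIs of the 15 cells, and the next cell had 147. In Col1a1fspKO, the highest 3 held 628 of 1039 UMIs. The median of these cells was 57 UMIs in Col1a1fspKO and 33 UMIs in WT, the opposite order to the summed level. At least 3 UMIs of the list were found in 70 of 188 and 55 of 169 members, a difference of 4.69 points (-5.21 to 14.4).

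Other genes also differed between the class II cells and the other members. Apoe was at 900 CPM in them and 265 CPM in the other members of Col1a1fspKO, and at 1849 and 375 CPM in WT. Ly6c2 was lower in them, at 2266 against 3196 CPM in Col1a1fspKO and 856 against 2041 CPM in WT. Cd209a, the DC-SIGN relative that monocyte-derived dendritic cells express, had 9 UMIs in 3 Col1a1fspKO members and 54 UMIs in 8 WT members, a ratio of 0.139 (0.0603 to 0.284), and was at 20.2 CPM in the class II cells of Col1a1fspKO and 428 CPM in those of WT. The median depth of the class II cells was 5951 and 5986 UMIs.

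The promoter windows of H2-Aa and H2-Eb1 are shown because both genes were at least 2-fold apart and had their UMIs in few cells. They are RefSeq windows of GRCm38.p6 on chromosome 17, H2-Aa on the minus strand and H2-Eb1 on the plus strand. The capitals mark TGATTGG, an inverted CCAAT box of the kind known as the Y box of class II promoters. It was searched on both strands, with CCAATCA as its other strand, and overlaps no other motif searched. It was found in a window of 7 of the 8 list genes with a window, and in 7.82% of all 32851 windows. A match is a description of the letters and not of a bound factor.
H2-Aa, chr17:34287774-34288073: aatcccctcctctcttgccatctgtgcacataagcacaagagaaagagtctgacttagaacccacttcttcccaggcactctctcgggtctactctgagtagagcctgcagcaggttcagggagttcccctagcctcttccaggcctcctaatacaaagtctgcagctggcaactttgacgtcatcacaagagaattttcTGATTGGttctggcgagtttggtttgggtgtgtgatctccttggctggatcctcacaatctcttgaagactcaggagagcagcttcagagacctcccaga
H2-Eb1, chr17:34305617-34305916: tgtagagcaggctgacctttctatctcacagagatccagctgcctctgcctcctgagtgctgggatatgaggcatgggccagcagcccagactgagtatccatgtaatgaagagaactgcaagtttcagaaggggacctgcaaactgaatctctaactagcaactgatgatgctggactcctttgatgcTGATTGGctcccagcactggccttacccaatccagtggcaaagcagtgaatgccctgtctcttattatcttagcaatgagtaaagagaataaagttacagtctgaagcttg

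Among the 9 genes with 20% or more of their UMIs in 1 cell, 3 rested mainly on that cell. Mcpt8 and Prss34, proteases of basophils and mast cells, had 264 and 230 UMIs in Col1a1fspKO members and 3 and 5 in WT members, ratios of 73.4 and 38.4. Of these, 259 and 225 UMIs were in the same Col1a1fspKO cell, which had 12876 UMIs in all, a monocyte sum of 27 UMIs and 18 UMIs of the Clec4a1, Clec4a3 and Wfdc17 sum. Without the top cell of each library, the ratio was 2.08 for Mcpt8, from 5 and 2 UMIs, and 1.04 for Prss34, from 5 and 4 UMIs. Ccl5, a chemokine of T and natural killer cells, had 6 UMIs in 6 WT cells and 88 UMIs in 11 Col1a1fspKO cells, of which 76 were in 1 cell, and 12 Col1a1fspKO and 5 WT UMIs were left without the top cells. Mpo had 67 UMIs in 10 Col1a1fspKO cells, of which 35 were in 1 cell, and 11 UMIs in 5 WT cells, and its ratio without the top cells was 3.81. Without the top cells, Cd209a was at 0.0952, H2-Eb1 at 0.377, H2-Aa at 0.465 and H2-Ab1 at 0.506. For Mcpt8, Prss34 and Ccl5, the ratio over all members thus describes mainly 1 cell.

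**Figure D5:**
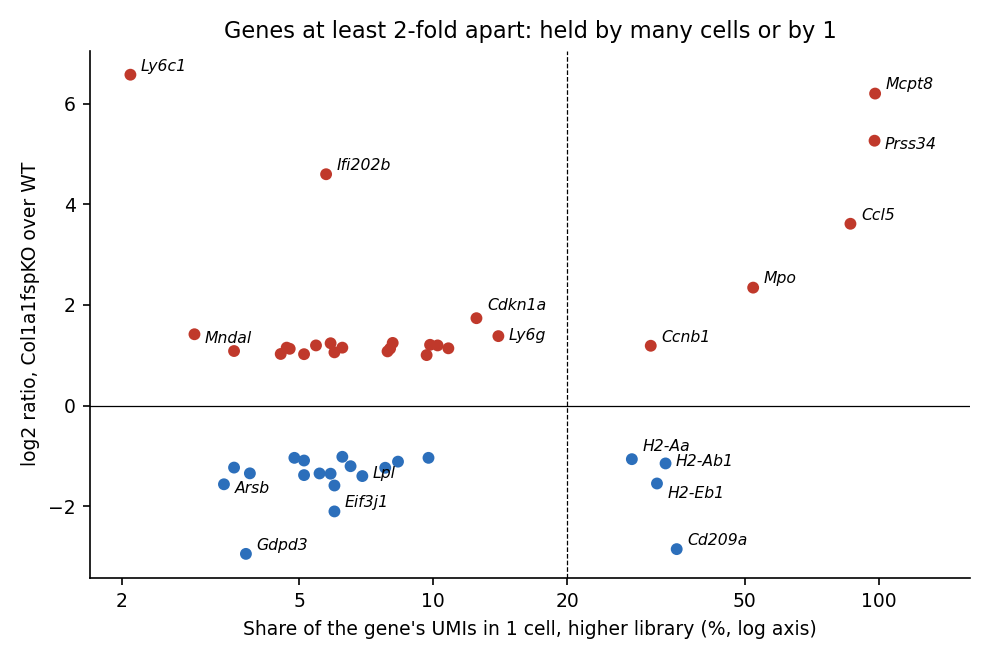
Each point is 1 of the 47 genes at least 2-fold apart, with the percent of its UMIs found in its top cell in the library where it was higher (horizontal log axis) and the log2 ratio of Col1a1fspKO over WT (vertical axis, Ifi202b with the floor of 3 UMIs in WT). Right of the dashed line at 20% lie 5 higher genes (red), among them Mcpt8 and Prss34, and 4 lower genes (blue), Cd209a and 3 class II genes, while Ly6c1 and Gdpd3 lie far to the left.

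Cell cycle arrest gene Cdkn1a, which encodes p21, had 40 UMIs in 25 Col1a1fspKO members and 10 UMIs in 8 WT members, a ratio of 3.34 (1.64 to 7.48). In the neighbouring cells its ratio was 0.974 and over the remaining cells 0.782, and the difference between these ratios was not tested. AW112010 had 122 UMIs in 64 cells and 44 UMIs in 29 cells, a ratio of 2.31 (1.63 to 3.34). Its ratio was 1.43 in the neighbouring cells and 2.23 over the remaining cells. Igsf8 (51 and 18 UMIs) and Pelo (37 and 13 UMIs), which acts on stalled ribosomes, had ratios of 2.36 (1.36 to 4.30) and 2.37 (1.23 to 4.87).

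Receptors, chemokines and effector genes follow, and their counts stand beside the 6.72% of all genes with an interval above 1 and the 5.68% below 1. Ccr2, part of the rule, was at 1059 CPM in Col1a1fspKO members and 849 in WT members, a ratio of 1.25 (1.14 to 1.36), and Cx3cr1 at a ratio of 0.861 (0.686 to 1.08). Cxcr4, which retains cells in the marrow, had 52 and 71 UMIs, a ratio of 0.611 (0.419 to 0.886). The chemokines Ccl6 and Ccl9 were at 753 and 627 CPM in Col1a1fspKO members and at 1015 and 789 CPM in WT members, with ratios of 0.743 (0.679 to 0.812) and 0.795 (0.719 to 0.879). Of 9 Fc receptor and adaptor genes, 4 had an interval below 1 and 0 above 1, with Fcer1g at a ratio of 0.905 (0.860 to 0.952). Of 7 phagocyte oxidase genes, 2 had an interval below 1 and 0 above, with Cybb at 0.955 and Cyba at 1.06. Of 16 myeloid transcription factors, 1 had an interval above 1, Id2 at 1.24 (1.05 to 1.45), and 3 below 1, where the share above 1 is near that of all genes, while Spi1 (PU.1) was at 1.03 (0.926 to 1.16). Of 7 MS4A genes, 0 had an interval away from 1. Among matrix genes, Fn1 (fibronectin) was at 674 CPM in Col1a1fspKO members and 818 in WT members, a ratio of 0.824 (0.747 to 0.908), and Lgals3 (galectin 3) at a ratio of 1.13 (1.07 to 1.19).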

How the data were processed

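Live bone marrow cells of 1 Col1a1fspKO and 1 WT pool were profiled with 10x 3' v2 chemistry. The tables the authors deposited hold unnormalized UMI counts, for which the labels name Cell Ranger and mm10, with Seurat 3.5.3 in the submitters' processing notes. The Cell Ranger version is not given in the sources used here. The stated limits (200 to 7000 genes, 10% mitochondrial UMIs) remove no cell. A gene that 1 table does not list was taken as 0 UMIs there.

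UMIs were summed over the members of each library and scaled to 1000000 (CPM), with exact Poisson intervals at 95%. Ratios of Col1a1fspKO over WT have exact binomial intervals. A library at 0 UMIs was set to a floor of 3 for the ratio, which is then a bound, while the interval used the count of 0. Shares have Clopper-Pearson and differences Newcombe intervals. Cells were thinned to 2500 UMIs with a fixed seed. A gene counted as apart at a ratio of at least 2 or at most 0.5 with at least 50 UMIs over both libraries. Python 3.11.15, scipy 1.17.1 and scanpy 1.11.5 were used, and the intervals were checked on simulated data. Those data were Poisson counts of gene totals, so the check does not cover genes whose UMIs lie in few cells.

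The members and the 32 gene lists were chosen with earlier results of these data known. Named were the genes of the rule and the markers, the 15 most abundant, the 12 highest and lowest ratios, the 15 highest and lowest against the neighbouring cells, and from each list up to 4 of the most abundant and those 2-fold apart. Not all of these are printed.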

Additional observations from a re-analysis of the deposited data

Results flagged for a closer look

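Of 129 named genes with at least 50 UMIs in the members and in the neighbouring monocyte-gated cells, 11 had counting intervals of the ratio of Col1a1fspKO over WT on opposite sides of 1 in the 2 sets. With 1 library per genotype, these differences were not tested.

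Genes that other cells of the marrow express were among them. Mcpt8 was at 73.4 in members and 0.0236 in the neighbouring cells, and Prss34 at 38.4 and 0.0308, and in members both rested on 1 cell. Mpo was at 5.08 and 0.822, S100a8 at 0.95 and 1.74, Hba-a1 at 0.56 and 1.24, and Hbb-bs at 0.888 and 1.20. Without the top cell of each library, Hba-a1 was at 1.26 and Hbb-bs at 1.18 in members.

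Cd74 was at 0.548 in members and 1.42 in the neighbouring cells, and Cd209a at 0.139 and 5.37, from 9 and 54 UMIs in members and 41 and 10 UMIs in the neighbouring cells. Bst2 was at 0.762 (0.620 to 0.937) and 1.41 (1.12 to 1.77), Btg2, an antiproliferative immediate early gene, at 0.749 (0.605 to 0.928) and 1.41 (1.02 to 1.95), and Itgb2, the integrin beta 2 chain, at 0.801 (0.655 to 0.980) and 1.52 (1.12 to 2.06).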

How the results depend on the processing

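Each genotype had 1 library of pooled mice, so the spread between mice is unknown, and no paired analysis was possible because the result comes from no test. The share of members of all cells stayed within -0.922 and 1.75 points under 9 alternatives, but over monocyte-gated cells the difference was 10.3 points, an alternative chosen after seeing the data. The share with non-classical genes differed by -4.89 points when thinned, by 2.39 points without Cebpb and by 5.45 points without Cebpb when thinned, both added after seeing the data. The class II share stayed within its interval but turned sign at 2 UMIs (-0.362 points) and when thinned (-1.91 points). The G2/M share kept its direction under 4 alternatives, from 8.06 to 14.5 points.

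The counts of genes 2-fold apart depend on depth. With a minimum of 20 UMIs, 173 genes were higher and 151 lower of 6550, and with 100 UMIs 8 and 9 of 2337. Thinned members gave 12 higher genes of 1972 tested, and at least 4 UMIs of the Clec4a1, Clec4a3 and Wfdc17 sum gave 42 of 3618. Median-of-ratios scaling and a total without the 20 most abundant genes each kept 25 of 26 higher and 21 of 21 lower genes, while the mean of single-cell CPM called 36 and 26, sharing 24 and 19. The log2 ratio reversed for Hba-a1 (0.34 without doublets, 0.33 without the top cells), Hba-a2 (0.15, 0.14), Hbb-bt (0.069, 0.072) and Hbb-bs (0.25, 0.24, and 0.050 as the mean of single cells). Without the cells of at least 10 class II UMIs it reversed for Cd74 (0.44), H2-Eb1 (0.29) and S100a8 (0.13).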
